A study of Arabidopsis thaliana with 6 samples.

Results

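Cytosolic ribosomal protein genes of chromosomes 1 and 2 were examined in Arabidopsis thaliana plants that carry GRF9, a growth-regulating transcription factor, under an estradiol (EST)-inducible promoter (GRF9-IOE plants). Of 59 listed loci, 29 had a probe set that the array annotation pairs with that gene alone, and they form the set described here among 13355 genes measured in this way. They encode 8 proteins of the small (40S) and 21 of the large (60S) subunit, from 23 of 43 protein families listed. A further 13 loci were reached only by 12 probe sets shared with other genes, and 17 loci are not named in the annotation used here. Total RNA was measured on Affymetrix ATH1 arrays in 6 conditions with 1 array each. Detached mature leaves of 40-day-old soil-grown plants (12 h light) were treated for 6 h with 10 µM EST or with ethanol alone (mock), and seedlings 2 weeks old on MS plates (16 h light) for 3 h and for 4 h with EST or mock (0.1% ethanol by the labels). Every plant, mock included, carried the transgene, the number of independent lines is not given, and no plants without it were treated, so an effect of EST itself cannot be told apart from that of GRF9. GRF9 is not represented on the array, and its induction was not checked here.

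Cytosolic ribosomes translate the nuclear-encoded messages of the plant cell. Each ribosomal protein is encoded in Arabidopsis by a small family of closely related genes, so that paralogs can contribute to the same position of the ribosome. The genes are typically expressed together and are known for high transcript levels in dividing and growing tissue. Acidic proteins of the P family form the stalk of the large subunit, which recruits elongation factors. Family names below follow the usual Arabidopsis nomenclature and were assigned from general knowledge, since the tables used here hold symbols but no descriptions.

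Signals differed little among the seedling arrays. All values are log2 signals of 1 probe set per gene as normalized by the authors, so a difference of 1 is 2-fold, and the level of one probe set says nothing about that of another. Apart from AT1G36240 (L30), AT2G39590 (S15a) and AT2G40010 (P0), the other 26 genes had signals between 7.36 and 13.02 in leaves and between 9.67 and 14.1 in seedlings. The median of these 26 genes was 11.33 on the EST and 11.59 on the mock leaf array, against 12.93 and 12.88 in EST and mock seedlings at 3 h and 12.84 and 12.92 in EST and mock seedlings at 4 h. Both leaf medians lay below all 4 seedling medians, while the seedling arrays were close to each other.

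**Figure D1:**
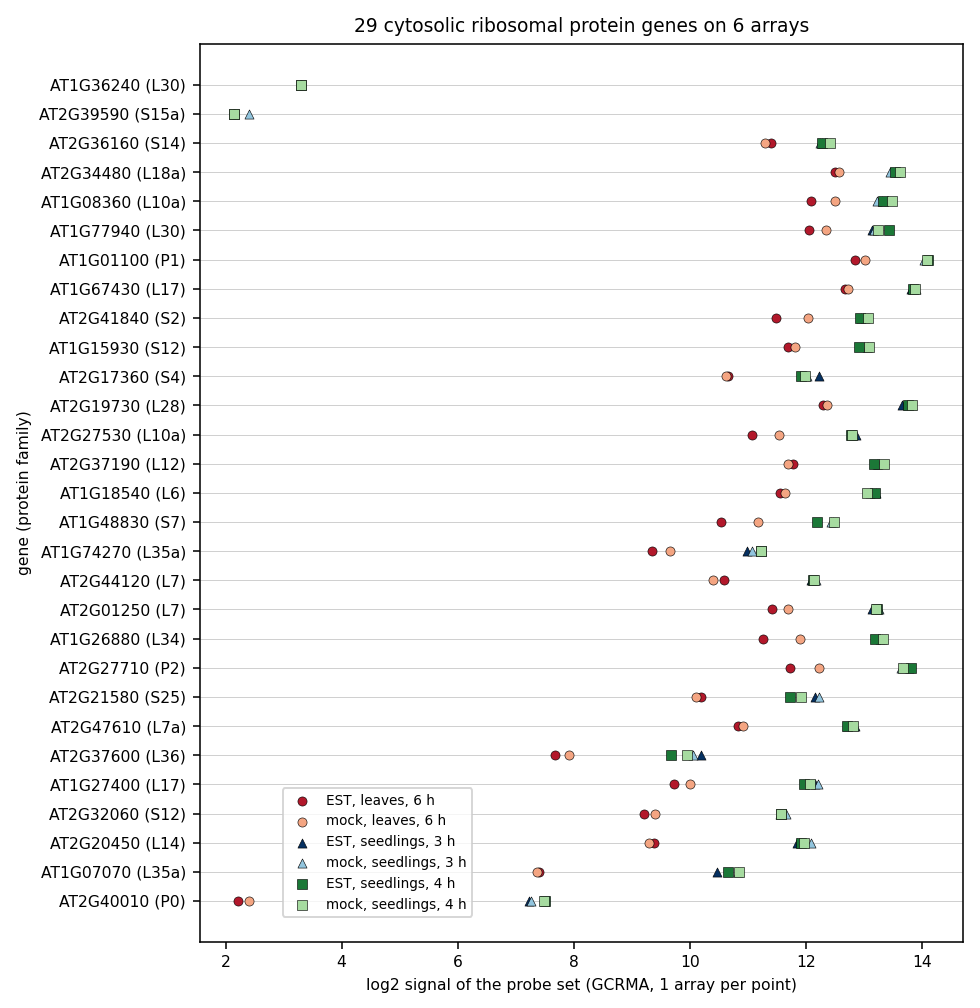
Log2 signal (horizontal axis) of the 29 ribosomal protein genes (rows, with the protein family in parentheses, ordered by the leaf minus seedling difference), with 1 point for each of 6 arrays. For 27 genes both leaf points (circles) lie left of all 4 seedling points, whereas AT1G36240 is at 3.31 on every array and AT2G39590 is at the array minimum of 2.15 on 5 arrays.

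Leaves had lower signals than seedlings for nearly all of these genes. In limma with tissue and treatment as terms, 27 of 29 genes (93.1%) fell in leaves and 0 rose at an adjusted p of 0.05, compared with 15.8% of all 13355 genes lower and 17% higher in leaves. Among all 655 genes with a mean signal of at least 10, 43.1% were lower in leaves. Adjusted p-values of the 27 genes ranged from 0.00047 to 0.0151. In these 27 genes both leaf signals lay below all 4 seedling signals, which was so for 23.4% of all genes and 49.2% of the 655 genes of high signal. The gap between the leaf and seedling signals was at least 0.71, while a gene's range over the 4 seedling arrays was 0.17 in the median and 0.51 at most. A fall of at least 2-fold was called for 26 of the 29, compared with 10.9% of all genes. The median difference between leaves and seedlings was -1.54 over the 29 genes, compared with 0 over all genes and -0.21 over the 655 genes of high signal.

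Tissue cannot be told apart here from age, soil or plates, day length, detachment or hours of treatment, and fewer cells with a high level cannot be told apart from less RNA per cell in such bulk samples. The tissue p-values set the leaf minus seedling difference against the spread among arrays within a tissue that a shared treatment effect leaves. The 2 leaf arrays are the EST and mock array of 1 time point, and none of the conditions, seedlings included (4 arrays), has a replicate. When a single array was left out, 24 to 26 genes were called lower, but with each EST and mock pair averaged 14 were, and with the seedling arrays of 1 time point only 0 (3 h) or 3 (4 h) were. Some markers of single tissues moved with the comparison. PYK10, a β-glucosidase of roots, had a signal of 2.17 on both leaf arrays and of 12.06 to 12.27 in seedlings, and it was the only gene measured of 7 root markers. Of 13 markers of dividing cells 0 were measured. WRKY53, a regulator of leaf ageing and the only gene measured of 6 ageing markers, had signals of 9.66 and 9.65 in EST and mock leaves. In EST and mock seedlings it had 6.41 and 5.43 at 3 h and 6.46 and 5.80 at 4 h, so its seedling signals also differed by treatment. RCA, the activase of Rubisco and the only gene measured of 8 photosynthesis markers, had signals of 14.13 and 13.63 in EST and mock leaves and 13.44 to 13.67 in seedlings, with an overlap between the tissues and no call (adjusted p = 0.316 in limma). The part of root and ageing leaf tissue in the lower ribosomal protein signals was not tested.

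The fall was not of one size. Of the 29 genes, 6 were more than 4-fold lower in leaves and 20 were 2-fold to 4-fold lower. The other 3 were AT2G36160, called with a difference of -0.95, and both genes without a call. These are AT1G36240, which is flat with a difference of 0, and AT2G39590, which is near the array minimum. The 40S genes had a median difference of -1.34 (8 genes) and the 60S genes of -1.62 (21 genes).

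The 3 measured transcripts for stalk proteins on these chromosomes fell by different amounts. AT2G40010, 1 of several genes for P0, the protein that anchors the stalk, had signals of 2.21 in EST and 2.40 in mock leaves, against 7.22 and 7.26 in EST and mock seedlings at 3 h and 7.50 and 7.48 at 4 h. Its difference was -5.06 ± 0.13 (SE, limma adjusted p = 0.000918), and since its leaf signals are close to the array minimum of 2.15, its size is limited by that minimum. AT1G01100, a P1 protein, had 12.84 and 13.02 in EST and mock leaves, against 14.06 and 14.03 in EST and mock seedlings at 3 h and 14.11 and 14.07 at 4 h. It was 2.20-fold lower in leaves (-1.14 ± 0.06, adjusted p = 0.00248 in limma). AT2G27710, a P2 protein, had 11.72 and 12.23 in EST and mock leaves, against 13.77 and 13.63 in EST and mock seedlings at 3 h and 13.81 and 13.66 at 4 h. It was 3.35-fold lower in leaves (-1.74 ± 0.18, adjusted p = 0.00821 in limma), with the leaf arrays further apart than any 2 seedling arrays. Other P0 genes, on chromosome 3, had differences of -1.23 ± 0.06 for AT3G09200 and -2.10 ± 0.03 for AT3G11250. AT4G00810, AT5G47700 and AT3G44590, further genes for P1 and P2 proteins, differed by -2.02, -2.23 and -2.61. Limma called all 5 lower, but they were picked after their values were seen and are not a full list of stalk protein genes. Of 78 measured cytosolic ribosomal protein genes of chromosomes 3 to 5, 73 were called lower.

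Among the other 60S genes, AT1G07070 (L35a) showed the largest fall in leaves. Its signals were 7.40 and 7.36 in EST and mock leaves, against 10.47 and 10.82 in EST and mock seedlings at 3 h and 10.65 and 10.84 at 4 h, a 9.97-fold difference (-3.32 ± 0.10, adjusted p = 0.00117 in limma). Next was AT2G20450 (L14), with 9.39 and 9.29 in EST and mock leaves, against 11.84 and 12.09 in EST and mock seedlings at 3 h and 11.91 and 11.96 at 4 h (-2.61 ± 0.08, adjusted p = 0.00119 in limma). In both genes the leaf signals lay below the seedling signals by more than the seedling arrays ranged. AT1G27400 (L17, a protein lining the exit tunnel of the nascent chain) had 9.72 and 10.01 in EST and mock leaves, against 12.14 and 12.20 in EST and mock seedlings at 3 h and 11.96 and 12.07 at 4 h (-2.23 ± 0.09, adjusted p = 0.00169 in limma). AT2G37600 (L36) had 7.67 and 7.91 in EST and mock leaves, against 10.19 and 10.05 in EST and mock seedlings at 3 h and 9.67 and 9.96 at 4 h, and was 4.52-fold lower. It also had the widest range among the seedling arrays. AT1G26880 (L34) was 3.24-fold lower, with 11.26 and 11.89 in EST and mock leaves and 13.18 to 13.33 in seedlings. AT1G18540 (L6) was 2.90-fold lower, with 11.56 and 11.63 in EST and mock leaves and 13.05 to 13.20 in seedlings. The smallest called fall in the 60S set was that of AT2G34480 (L18a), 2.01-fold, with 12.50 and 12.57 in EST and mock leaves and 13.44 to 13.61 in seedlings. The leaf signals of all 3 genes were separated from their seedling range. The remaining 60S genes, with no measured paralog on chromosomes 1 and 2, AT2G19730 (L28), AT2G37190 (L12, at the base of the stalk) and AT2G47610 (L7a), differed by -1.44, -1.52 and -1.89.

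Of the 40S genes, AT2G32060 (S12) fell most in leaves, 4.84-fold. Its signals were 9.21 and 9.40 in EST and mock leaves, against 11.54 and 11.65 in EST and mock seedlings at 3 h and 11.56 and 11.57 at 4 h (-2.28 ± 0.05, adjusted p = 0.000694 in limma). AT2G21580 (S25) was 3.63-fold lower, with 10.19 and 10.10 in EST and mock leaves and 11.72 to 12.22 in seedlings. Its seedling arrays were spread wider than its leaf arrays. AT1G48830 (S7) was 2.91-fold lower, with 10.53 and 11.16 in EST and mock leaves and 12.19 to 12.48 in seedlings. AT2G17360 (S4) was 2.62-fold lower, with 10.65 and 10.62 in EST and mock leaves and 11.90 to 12.21 in seedlings. In none of these genes did a leaf signal reach the seedling range. AT2G41840 (S2), a protein near the entry of the mRNA channel, was 2.35-fold lower, with 11.48 and 12.03 in EST and mock leaves and 12.94 to 13.06 in seedlings. AT2G36160 (S14) had the smallest called fall, 1.94-fold, with 11.40 and 11.29 in EST and mock leaves and 12.23 to 12.40 in seedlings (-0.95 ± 0.07, adjusted p = 0.00436 in limma). AT2G39590 (S15a) was at the array minimum of 2.15 on all arrays except the 3 h mock seedlings (2.40), so it carries no information on leaves and seedlings (adjusted p = 0.813 in limma).

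The loci reached only by shared probe sets differed in the same direction. All 12 shared probe sets had both leaf signals below all 4 seedling signals, with a median of -1.34 and a range of -1.82 to -0.80. Their signals cannot be assigned to 1 gene, and they took no part in the tests. Cytosolic ribosomal protein genes of chromosomes 3 to 5, from a list added after the array annotation was seen, had 78 of 121 genes measured, of which 73 fell and 0 rose in leaves by limma, with a median of -1.60 and a range of -3.63 to 0. A difference between the members and these genes was not tested. Of 25 listed genes for ribosome assembly and its regulation 9 were measured and all 9 fell in leaves (median -2.01, range -2.90 to -1.19). These include PES (Pescadillo, AT5G14520), which is needed for maturation of the large subunit, with signals of 9.90 and 10.15 in EST and mock leaves and 11.07 to 11.33 in seedlings. Nuclear genes for plastid ribosomal proteins had 8 of 37 measured, of which 5 fell and 0 rose in leaves (median -0.83, range -1.70 to -0.37).

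**Figure D2:**
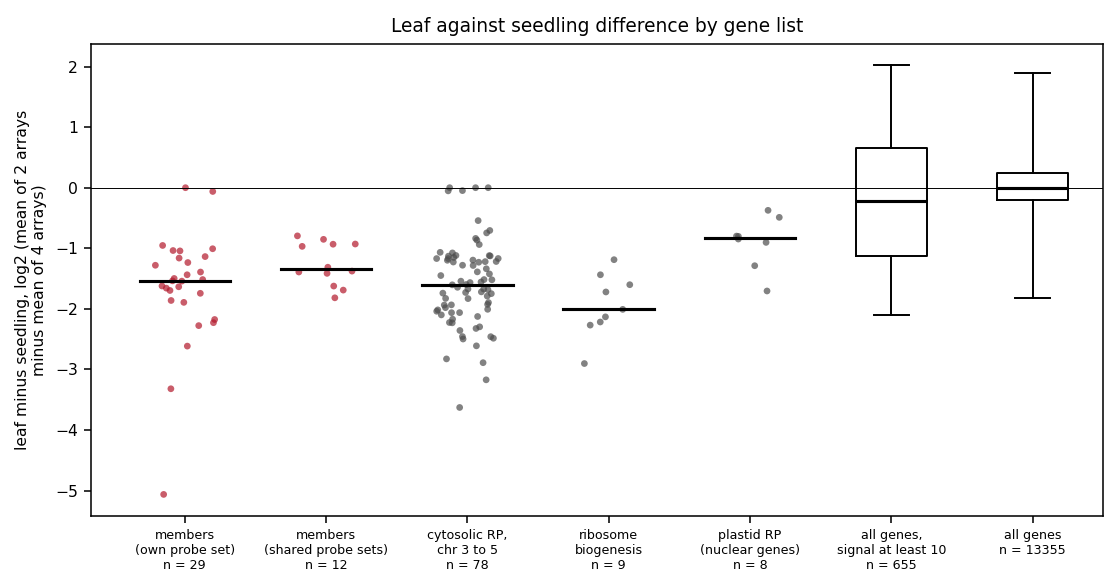
Leaf minus seedling difference in log2 signal (vertical axis, mean of 2 leaf arrays minus mean of 4 seedling arrays) for the listed genes, the shared probe sets, comparison lists, the 655 genes with a mean signal of at least 10 and all 13355 genes. Points are genes or probe sets and black bars medians; boxes give quartiles with whiskers at the 5th and 95th percentile. The medians are -1.54 for the members, -1.34 for shared probe sets, -1.60 for chromosomes 3 to 5, -2.01 for ribosome biogenesis and -0.83 for plastid ribosomal proteins.

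Some pairs of paralogs had unequal falls in leaves, which were larger than the spread of the seedling ratios but could not pass the test available. In 6 families 2 listed genes had a probe set of their own, further paralogs being on shared probe sets or other chromosomes, and 5 pairs could be compared through the ratio of their signals on each array, given here relative to its mean over the 4 seedling arrays. The exact two-sided permutation test over 2 leaf and 4 seedling arrays has 15 splits and cannot go below p = 0.0667, so no pair can pass 0.05; over the 8 ratios compared here, 3 of them between stalk proteins, the Benjamini-Hochberg adjusted value of that p is 0.0762. That smallest p was reached by 4 of the 5 pairs, in which the leaf ratios lay outside the range of the seedling ratios. The share of other gene pairs that would do the same was not computed, so this count does not set paralogs apart. In each of these 4 pairs the probe set with the lower mean signal in seedlings fell more. Over the 26 genes left without AT1G36240, AT2G39590 and AT2G40010, a lower mean signal over all 6 arrays went with a larger fall in leaves (Spearman correlation 0.66). That mean includes the leaf arrays, so a larger fall itself lowers it and part of this correlation is built in. The part of signal level in the unequal falls of paralogs was not tested.

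The L35a pair differed most. AT1G74270 had signals of 9.34 and 9.66 in EST and mock leaves, against 10.98 and 11.07 in EST and mock seedlings at 3 h and 11.22 and 11.23 at 4 h, and was 3.08-fold lower in leaves, whereas AT1G07070 was 9.97-fold lower. The ratio of AT1G07070 to AT1G74270 was -1.52 and -1.88 in EST and mock leaves and -0.14 to 0.18 in seedlings, a 3.24-fold shift. In the L17 family, AT1G67430 had 12.67 and 12.72 in EST and mock leaves, against 13.80 and 13.90 in EST and mock seedlings at 3 h and 13.85 and 13.87 at 4 h (-1.16 ± 0.02, adjusted p = 0.00047 in limma), the smallest p of the 29 genes. The ratio of AT1G27400 to AT1G67430 was -1.18 and -0.95 in EST and mock leaves and -0.12 to 0.10 in seedlings, a 2.09-fold shift toward AT1G67430.

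The S12 pair was the only 40S pair compared. AT1G15930 had 11.68 and 11.82 in EST and mock leaves, against 13.05 and 13.06 in EST and mock seedlings at 3 h and 12.92 and 13.09 at 4 h (-1.28 ± 0.05, adjusted p = 0.00149 in limma). The ratio of AT1G15930 to AT2G32060 was 1.03 and 0.97 in EST and mock leaves and -0.10 to 0.07 in seedlings, so the signal of AT1G15930 fell 1.99-fold less. In the L10a family, whose proteins belong to the mobile stalk of the large subunit, AT1G08360 had 12.09 and 12.50 in EST and mock leaves and 13.21 to 13.48 in seedlings. Its paralog PGY1 (PIGGYBACK1, AT2G27530), known from leaf polarity mutants, had 11.07 and 11.54 in EST and mock leaves and 12.77 to 12.85 in seedlings. The ratio of AT1G08360 to PGY1 was 0.49 and 0.44 in EST and mock leaves and -0.12 to 0.17 in seedlings, a 1.38-fold shift.

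The L7 pair moved together on average. AT2G01250 had 11.41 and 11.68 in EST and mock leaves and 13.14 to 13.26 in seedlings, a difference of -1.66, and AT2G44120 had 10.58 and 10.40 in EST and mock leaves and 12.07 to 12.17 in seedlings, a difference of -1.64 (-1.83 to -1.44, limma 95% interval). The ratio of AT2G01250 to AT2G44120 was -0.25 and 0.20 in EST and mock leaves, on both sides of the seedling range of -0.02 to 0.02 (exact permutation p = 0.667). The sixth family, L30, could not be compared. AT1G77940 had 12.05 and 12.35 in EST and mock leaves and 13.14 to 13.42 in seedlings (-1.04 ± 0.14, adjusted p = 0.0151 in limma), while the probe set of AT1G36240 gave 3.31 on all 6 arrays. Proteins of the stalk genes are partners in 1 complex. Among these genes the ratio of AT2G40010 (P0) to AT1G01100 (P1) was -3.93 and -3.92 in EST and mock leaves. The ratio of AT2G40010 to AT2G27710 (P2) was -3.17 and -3.47. Both are bounded by the array minimum and concern this P0 gene alone. The ratio of AT1G01100 to AT2G27710 was 0.77 and 0.44 in EST and mock leaves, against -0.06 to 0.06 in seedlings. The leaf ratios lay outside the seedling range in these 3 comparisons as well (exact permutation p = 0.0667 each), again without a share for other gene pairs.

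**Figure D3:**
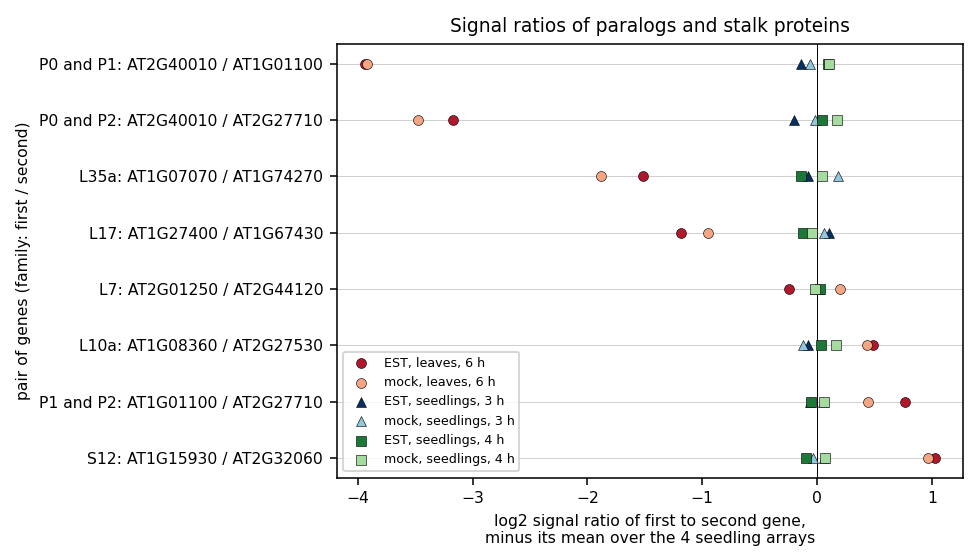
Log2 ratio of the first to the second gene of each pair (horizontal axis) on 6 arrays, minus its mean over the 4 seedling arrays, for 5 pairs of paralogs and 3 pairs of stalk protein genes (rows). Circles are leaves, triangles seedlings at 3 h and squares seedlings at 4 h, dark for EST and light for mock. The leaf circles lie outside the seedling points in all rows, on 1 side in all except L7, where they lie on both sides at -0.25 and 0.20.

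EST treatment was followed by small differences in these genes. Over the 29 genes the EST signal differed from mock by 0.00 in the median in seedlings at 3 h, by -0.07 at 4 h and by -0.13 in leaves at 6 h, compared with 0 for all genes at each time. Many of all genes have a difference of exactly 0. The medians of the 655 genes with a mean signal of at least 10 were 0.007, 0.026 and 0.024. The difference between the mock seedlings of 4 h and of 3 h, which carries no EST effect, had a median of 0.02 and a range of -0.30 to 0.27 over the members. The ranges with EST were -0.35 to 0.21 at 3 h and -0.29 to 0.18 at 4 h in seedlings, and -0.64 to 0.18 at 6 h in leaves, for which no second mock array exists.

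No member reached a 1.5-fold difference in seedlings in either direction, where 3.68% of all genes were higher and 2.05% lower at 3 h, and 2.26% higher and 1.08% lower at 4 h. At 6 h in leaves 0 were higher and 2 of 29 lower by at least 1.5-fold, compared with 4.32% of all genes higher and 4.35% lower. At a lower threshold of 0.32 in log2, 6 of 29 genes were lower at 6 h (20.7%), compared with 10.4% of all genes. Over the 3 pairs, with the pair as a block, limma called 0 members, with a smallest adjusted p of 0.991, and 0 members had an unadjusted p under 0.05. Of all 13355 genes 0 were called, while an unadjusted p under 0.05 was reached by 385 genes (2.88%) that were higher and 228 (1.71%) that were lower. A term for a different EST effect in leaves called 0 members, with 4 of 29 at an unadjusted p under 0.05, compared with 13.6% of all genes, and a smallest adjusted p of 0.0606 (AT2G27710, P2). The error of this term comes mainly from how far the 3 h and 4 h seedling differences disagree, and the leaf difference has no replicate. For AT2G27710 the seedling differences were 0.144 and 0.147, so its p does not measure how repeatable the leaf difference is.

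Among single genes at 3 h AT1G07070 (L35a) was lowest, with 10.47 in EST and 10.82 in mock seedlings (-0.35), followed by AT2G20450 (L14, -0.25) and by AT2G39590 (S15a, -0.25), which is at the array minimum with EST. AT2G17360 (S4) had 12.21 in EST and 12.01 in mock seedlings at 3 h (0.21), the highest difference, followed by AT2G27710 (P2) and AT2G34480 (L18a) at 0.14 each. These values lie about as far from 0 as the members' differences between the mock seedling arrays. At 4 h AT1G48830 (S7) had 12.19 in EST and 12.48 in mock seedlings (-0.29), AT2G37600 (L36) had 9.67 in EST and 9.96 in mock seedlings (-0.28) and AT2G21580 (S25) differed by -0.20. On the other side were AT1G77940 (L30, 0.18), AT2G27710 (P2, 0.15) and AT1G18540 (L6, 0.14).

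At 6 h the largest differences were all downward. AT1G48830 (S7) had 10.53 in EST and 11.16 in mock leaves (-0.64), AT1G26880 (L34) had 11.26 in EST and 11.89 in mock leaves (-0.63) and AT2G41840 (S2) had 11.48 in EST and 12.03 in mock leaves (-0.54). AT2G27710 (P2) at -0.50, PGY1 (L10a) at -0.47 and AT1G08360 (L10a) at -0.42 were the others past 0.32, so both measured L10a genes are among these 6. The highest differences at 6 h were those of AT2G44120 (L7, 0.18), AT2G36160 (S14, 0.11) and AT2G20450 (L14, 0.10). With quantile normalization 4 genes in place of 2 were at least 1.5-fold lower at 6 h, AT2G41840 and PGY1 being the additional ones.

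By sign, 14 members were higher and 14 lower with EST at 3 h, 6 higher and 21 lower at 4 h, and 7 higher and 20 lower at 6 h, the rest being equal. Among the 24 members with a mean signal of at least 10, 79.2% were lower at 4 h and 75.0% at 6 h, whereas of all 655 genes of such signal 42.6% were lower at 4 h and 46.4% at 6 h. Genes on 1 pair of arrays share its errors, and the split changed to 8 higher and 19 lower at 3 h and to 10 higher and 18 lower at 4 h when both mock seedling arrays were exchanged. At 3 h it was also 10 higher and 16 lower with quantile normalization and 12 higher and 17 lower with median centring. The shared probe sets had medians of 0.05, -0.03 and -0.16 at 3, 4 and 6 h, and the genes of chromosomes 3 to 5 of -0.01, -0.06 and -0.11.

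The 9 ribosome assembly genes had median differences of -0.20 (3 h), -0.28 (4 h) and -0.17 (6 h), and 8, 9 and 7 of them were lower with EST. Of all genes 32.4%, 30.3% and 30.6% were lower at these times. Among the 655 genes with a mean signal of at least 10 it was 49.0%, 42.6% and 46.4%. In limma over the 3 pairs 0 of the 9 were called, with a smallest adjusted p of 0.642. In the same limma fit 4 of the 9 were lower at an unadjusted p under 0.05, compared with 1.71% of all genes. PES had 11.07 in EST and 11.32 in mock seedlings at 3 h, 11.13 in EST and 11.33 in mock seedlings at 4 h, and 9.90 in EST and 10.15 in mock leaves at 6 h. The EST signal of PES was lower in all 3 pairs by a similar amount, but PES was chosen after its values were seen. Of the same list, AT1G25260, AT5G15550 and AT3G13940 changed sign between pairs, and the remaining genes were lower with EST in each pair.

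**Figure D4:**
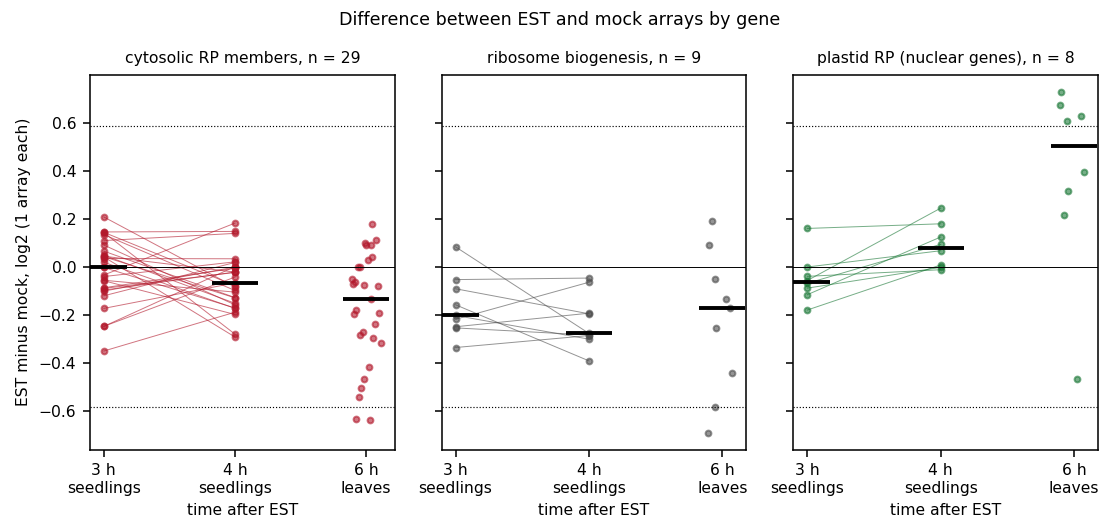
EST minus mock difference in log2 signal (vertical axis, 1 array each) at 3 h and 4 h in seedlings and at 6 h in leaves (horizontal axis) for the 29 ribosomal protein genes, 9 ribosome biogenesis genes and 8 nuclear genes of plastid ribosomal proteins. Points are genes, thin lines join a gene's seedling values, black bars are medians and dotted lines mark 1.5-fold. The members' medians are 0.00, -0.07 and -0.13, and the plastid genes' medians -0.06, 0.08 and 0.50.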

How the data were processed

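Before deposit the authors normalized the 6 ATH1 arrays together with GCRMA (version not given in the sources used here), giving 1 log2 signal per probe set, and nothing was changed for the main results. On each array 22.9% to 24.3% of probe sets share the lowest value, 2.15, so falls toward it are cut short. Array medians were 5.16 to 5.33, and correlations were 0.995 to 0.997 among seedlings, 0.993 between leaves and 0.91 to 0.926 across tissues. Of 22810 probe sets 13513 are paired with 1 gene in the supplied platform annotation and 503 with several. For 147 genes with several probe sets the one of highest mean signal was kept. TAIR10.1 gave 13355 genes, and 77 probe sets were unmatched. No member probe set is marked as hitting several genes (_s_at or _x_at).

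Tissue was tested with limma 3.58.1 (R 4.3.3) with treatment as covariate (3 residual degrees of freedom), and EST with the time point pair as block (2 residual degrees of freedom), p-values being adjusted over 13355 genes by the Benjamini-Hochberg method at 0.05. The 1.5-fold counts of EST at single times rest on 1 array per condition and have no test. On simulated data with 13355 genes, 200 of them changed, the tissue test recovered 6.5%, 31.5% and 83% of changes of 0.5, 1 and 2 in log2, and the EST test 0%, 16.5% and 55%. False calls among the unchanged genes were 1, 4 and 19 in the tissue test and 0, 2 and 5 in the EST test. Precision is limited by the number of arrays. Genes given with array values are those in families with 2 measured members, the 5 with the largest tissue difference, the 3 with the largest EST difference in each direction and time, those with a mean signal under 6, and the stalk proteins. PES and the stalk protein genes of chromosomes 3 to 5 were chosen after their values were seen. The members and lists were chosen with earlier results of these data known. The labels give the leaf donors' age and the ethanol share otherwise than the study's methods, and the labels were followed. Alternatives were quantile normalization, median centring, filters at a mean signal of 6 and (added later) 10, other probe set rules, folds, arrays and fits. Python 3.11.15 and matplotlib 3.10.9 were also used.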

Additional observations from a re-analysis of the deposited data

Results flagged for a closer look

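For 7 of the 29 ribosomal protein genes (24.1%) the EST minus mock difference had one sign at both seedling times and the other sign in leaves, compared with 16% of all 13355 genes and 26.3% of the 655 genes with a mean signal of at least 10. These are differences between single arrays; as tested by the limma term for leaves against seedlings with 1 residual degree of freedom, none of the 7 passed an adjusted p of 0.05.

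AT2G27710 (P2) was higher with EST in seedlings at 3 h (0.14) and 4 h (0.15) and lower in leaves (-0.50, adjusted p of the difference 0.0606 in limma). AT1G01100 (P1), its partner in the stalk, differed by 0.03 at both seedling times and by -0.18 in leaves (adjusted p = 0.0740 in limma). In both genes the seedling differences at 3 h and 4 h nearly coincide, which makes the error of that limma term small. The leaf differences have no replicate. AT1G18540 (L6) differed by 0.11 and 0.14 in seedlings and by -0.076 in leaves (adjusted p = 0.314 in limma). These 3 genes had the higher EST signal in seedlings.

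The other 4 had the lower EST signal in seedlings. AT1G07070 (L35a) differed by -0.35 at 3 h and -0.19 at 4 h in seedlings and by 0.042 in leaves (adjusted p = 0.655 in limma). AT2G20450 (L14) differed by -0.25 and -0.04 in seedlings and by 0.10 in leaves (adjusted p = 0.835 in limma). AT2G21580 (S25) differed by -0.06 and -0.20 in seedlings and by 0.089 in leaves (adjusted p = 0.737 in limma). AT2G44120 (L7) differed by -0.09 and -0.02 in seedlings and by 0.18 in leaves (adjusted p = 0.464 in limma). With 1 array per condition, no array could be examined for standing apart from its group.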

How the results depend on the processing

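The fall in leaves kept its direction for the 27 called genes in every alternative that tested them. The number called depended on how many arrays entered, and on whether the EST and mock array of a pair counted separately or, averaged, as 1 value. It was 27 with the pair as a random block (correlation within pairs -0.08), 24 to 26 without a single array (24 without the EST leaf or the mock 4 h array, 25 without the EST 3 h or EST 4 h array, 26 without the mock leaf or mock 3 h array), 14 with each pair averaged, 3 with the 4 h seedling and leaf arrays and 0 with the 3 h seedling and leaf arrays, where fewer arrays were tested. Genes lost without 1 array were AT1G08360, AT1G77940, AT2G21580 and AT2G41840, with adjusted p-values of at most 0.0791 in limma. Quantile normalization called 1 gene higher, AT1G36240, which is flat as deposited. Median centring removes a shift of -0.14 in the median of all genes between leaves and seedlings. The members' median was -1.40 with centring, -1.42 with mock arrays alone and -1.58 to -1.41 without a single array.

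With EST, limma called 0 members under every setting, including the fit without the replicate block (pairs ignored, 0 members) and without any 1 pair. Counts of lower genes were 1 at 3 h with a threshold of 0.32 in log2, and at 6 h 4 with quantile normalization, 6 with a threshold of 0.32 and 0 at 2-fold. The median at 3 h was -0.032 with quantile normalization, -0.034 with centring, -0.030 with exchanged mock seedling arrays, -0.018 with their mean and 0.026 with filters at 6 or 10, so its sign is not settled. At 4 h it was -0.039 with quantile normalization, -0.042 with exchanged mock arrays and -0.046 with their mean, and at 6 h -0.12 with quantile normalization, -0.15 with centring and -0.16 with either filter.

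The leaf shift between paralogs was -1.27 for L17 and 1.18 for S12 with quantile normalization and -1.99 for L35a with mock arrays alone. That of P0 to P1 was -4.10 with quantile normalization and that of P0 to P2 -3.55 with mock arrays alone. The cause of these changes was not tested. The array minimum limits what can be said of AT2G40010 and AT2G39590.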

Other observations

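Nuclear genes of plastid ribosomal proteins had a median EST minus mock difference of 0.50 in leaves at 6 h, and the cytosolic set of -0.13 on the same 2 arrays. Of the 8 measured plastid genes 7 had the higher signal with EST, compared with 34.8% of all genes and 53.6% of the 655 genes with a mean signal of at least 10. AT4G01310 (plastid L5) had 11.56 in EST and 10.83 in mock leaves (0.73), AT1G29070 (plastid L34) had 11.32 in EST and 10.64 in mock leaves (0.67), and AT5G47190 (plastid L19) had 9.36 in EST and 8.73 in mock leaves (0.63). AT3G54210 (plastid L17) differed in the other direction, with 11.63 in EST and 12.09 in mock leaves (-0.47). The median was 0.51 with quantile normalization and 0.49 with centring, with 7 of 8 genes higher in both. These 4 genes were named after their values were seen. In seedlings the plastid set had medians of -0.06 at 3 h and 0.08 at 4 h. Limma over the 3 pairs called 0 of the 8 genes, with 0 at an unadjusted p under 0.05 in either direction. That fit has 1 EST effect for leaves and seedlings together, so it cannot decide on a difference in leaves alone, which has no replicate. The difference between the plastid and cytosolic sets was not tested. RCA, the Rubisco activase, had 14.13 in EST and 13.63 in mock leaves (0.50), and its part in the difference was not tested.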
